A study of Mus musculus with 6 samples.

Results

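The suppressor of cytokine signalling genes Socs1 to Socs7 and their relative Cish were followed in mouse bone marrow derived macrophages given piceatannol. These 8 genes were taken by symbol from a table of 52459 gene symbols, and all 8 were present and passed the filter on low counts. The cells were from C57BL/6 mice and were grown in complete RPMI medium plus GM-CSF, the granulocyte-macrophage colony-stimulating factor. The 3 piceatannol libraries came from cultures that received the compound overnight from day 7, and the 3 control libraries from cultures that received vehicle. Piceatannol is a plant stilbene that inhibits the kinase Syk. Its dose was not given in the sources used here, nor was the vehicle, and no label says whether libraries within a group stem from different animals or dishes. The p-values therefore measure the spread between these libraries, which may be technical.

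Cytokine receptors of the GM-CSF, interferon and interleukin-6 families carry Janus kinases (JAKs), which phosphorylate STAT transcription factors. STATs switch on SOCS genes, and SOCS proteins then bind the receptor or the kinase through their SH2 domain and recruit a ubiquitin ligase through their SOCS box, so the family is a feedback brake on the signal that induces it. CIS, the protein of Cish, is known as a STAT5 target and a brake on GM-CSF and interleukin-2 signals. SOCS1 restrains interferon signalling and SOCS3 restrains signalling through gp130, and these proteins can also block JAKs directly. SOCS2 limits growth hormone signalling, and SOCS4 to SOCS7 are known mainly for binding receptor tyrosine kinases and insulin receptor substrates.

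The stretches that carry letters of the known binding motifs of this circuit are shown for the members where a search found them. The GAS motif of STAT factors was searched as TTCNNNGAA, which reads the same on both strands, and the ISRE motif of interferon regulatory factors as GAAA and GAAA parted by any 2 bases, on both strands, in RefSeq windows of 300 bases around the start site (GRCm38.p6). Windows matched by symbol were searched for 4 members, namely Cish, Socs1, Socs3 and Socs4. Socs2, Socs5, Socs6 and Socs7 were not searched, so nothing is said here of motifs at these genes. Capitals mark the matched letters in each stretch of 30 bases, 5′ to 3′ on the strand of the gene.
Cish: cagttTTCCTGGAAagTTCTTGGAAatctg
Socs1: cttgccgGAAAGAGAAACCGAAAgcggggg
Socs3: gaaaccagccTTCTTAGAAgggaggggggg
The Cish stretch lies at chr9:107296654-107296683 on the plus strand, where the first GAS match begins at the RefSeq start site itself, inside an exon of a longer GENCODE transcript. The Socs1 stretch lies at chr16:10785597-10785626 on the minus strand, and its overlapping ISRE matches span bases -83 to -68 from the start site. The Socs3 stretch lies at chr11:117969501-117969530 on the minus strand, with its GAS match at bases -154 to -146. The Socs4 window held neither motif, and no GAS and ISRE matches overlapped. Of all 32851 RefSeq windows of this length, 8.3% held a GAS match and 3.44% an ISRE match. These matches describe letters in a window and carry no measurement of binding.

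The libraries held between 33276569 and 58697084 counts, and 15380 genes were tested (median log2 fold change 0.01). The labelled cell type was checked against marker lists. All 8 macrophage markers were tested, of which Cd14 and Cd68 rose and 6, among them Adgre1, Csf1r and Itgam, fell. The falls ran from 1.27-fold for Mertk to 10.2-fold for Fcgr1. The summed level of the 8 markers ran from 13197 to 14671 CPM (counts scaled to library size) in piceatannol and from 18595 to 22569 CPM in control libraries. Most of that sum was Lyz2, with 10224 CPM in piceatannol and 14876 CPM in control libraries on average, so it says little of the other markers. Markers of stromal cells summed to 491 to 553 CPM in piceatannol and 2228 to 2480 CPM in control libraries, with 5 of 5 lower. Neutrophil markers summed to 34.0 to 41.1 CPM in piceatannol and 254 to 600 CPM in control libraries, with 7 of 7 tested lower. Dendritic cell markers summed to 825 to 1026 CPM in piceatannol and 1555 to 1683 CPM in control libraries, with 1 higher and 5 lower of 7 tested. T, B and NK cell markers summed to at most 0.689 CPM in piceatannol and 3.15 CPM in control libraries, with 5 of 5 tested lower and Ncr1 at 0 in every library. Mast cell, basophil and eosinophil markers summed to 6.45 to 7.62 CPM in piceatannol and 10.1 to 15.7 CPM in control libraries, and erythroid markers to at most 1.31 CPM in piceatannol and 0.423 CPM in control libraries. The part of these cells in the results below was not tested, and in bulk RNA fewer cells of a type and less RNA per cell cannot be told apart.

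The family moved in both directions. With piceatannol Socs3, Socs6, Socs7, Socs4 and Socs1 rose, in that order of size, and Socs5, Cish and Socs2 fell. All 8 members passed the threshold of 0.05 on p adjusted by Benjamini-Hochberg over all genes (edgeR's quasi-likelihood test), in a comparison where 77% of all tested genes did. The 5 rises and 3 falls stood beside 38.8% of all genes up and 38.3% down, so the count called does not set the family apart. The median log2 fold change of the members was 0.37. The 3 values of a group lay wholly apart from those of the other group for 7 of 8 members, against 79% of all tested genes. Past the threshold with a change of at least 2-fold were 2 members, Socs3 and Socs6, both upward, where 34% of all genes were past it in either direction and 17.5% upward.

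**Figure D1:**
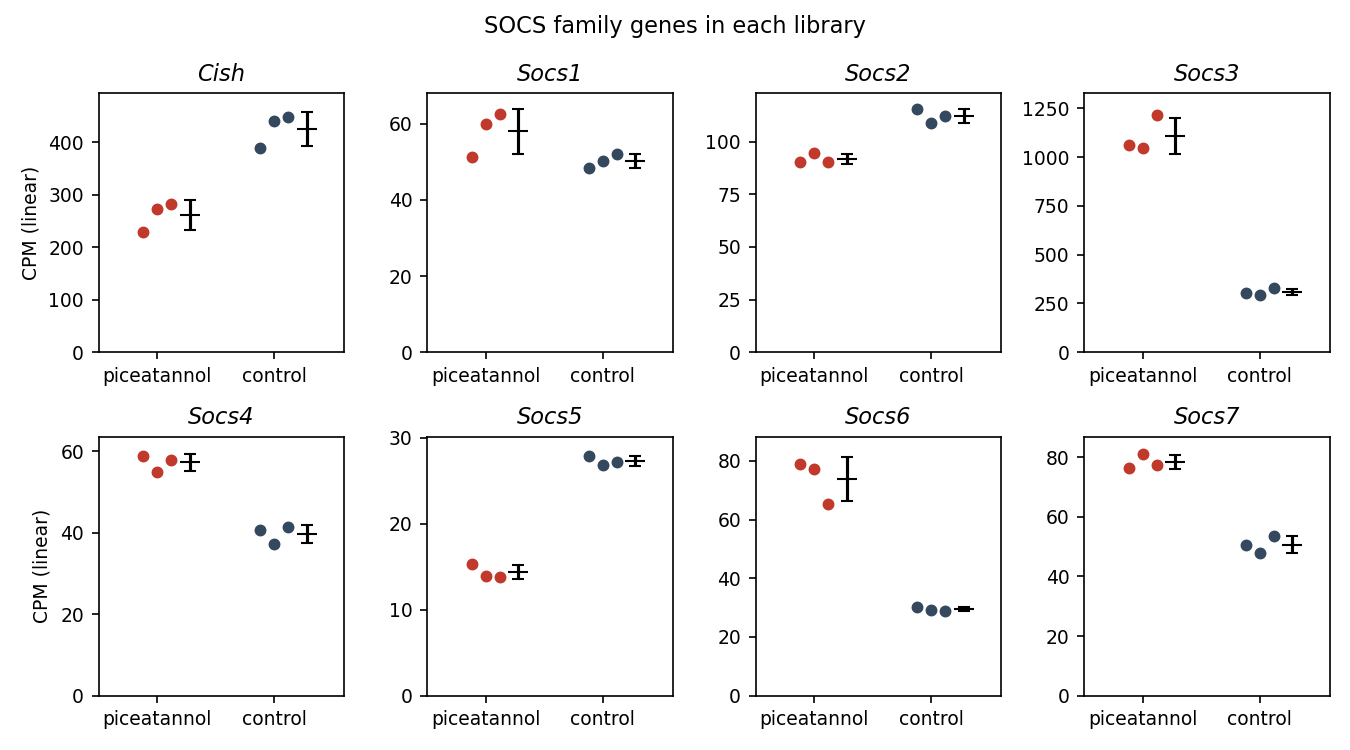
CPM of each SOCS family gene on a linear axis from 0. Each point is 1 library, piceatannol left of control, and the bar beside the points gives the mean and SD (n = 3). The groups lie apart for every gene but Socs1.

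Socs3, whose protein is the gp130 and JAK inhibitor, changed most. It had 1061, 1048 and 1217 CPM in piceatannol libraries, against 304, 293 and 328 CPM in control libraries. The lowest piceatannol library was more than 3 times as high as the highest control library. Socs3 (chromosome 11, 117966079 to 117970047, minus strand) rose 3.59-fold, or 1.85 ± 0.07 (SE) as log2 fold change (adjusted p = 6.05e-15, edgeR's quasi-likelihood test), and ranked 1136 of 15380 tested genes from the highest. Its level per length ranked 99 among tested genes in piceatannol and 412 in control libraries, by mean FPKM (counts divided by gene length and sequencing depth, as the authors deposited them).

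Socs1, the close relative of Socs3 and the interferon brake, changed little. It had 51.3, 59.98 and 62.7 CPM in piceatannol libraries, against 48.4, 50.2 and 52.1 CPM in control libraries. Piceatannol replicate 1 lay below control replicate 3, so the groups overlapped. Socs1 (chromosome 16, 10782240 to 10785536, minus strand) rose 1.15-fold, with a log2 fold change of 0.21 and a 95% interval of 0.05 to 0.36 (adjusted p = 0.0151, edgeR's quasi-likelihood test). This call was lost under 6 of 15 alternatives, with adjusted p between 0.0505 in DESeq2 and 0.0979 without piceatannol replicate 3.

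Cish and Socs2, whose proteins act on STAT5-coupled receptors, fell. Cish had 229, 273 and 282 CPM in piceatannol libraries, against 389, 440 and 449 CPM in control libraries. The highest piceatannol library stayed well below the lowest control library. Cish (chromosome 9, 107296026 to 107302784, plus strand) fell 1.63-fold, or -0.70 ± 0.08 (SE) as log2 fold change (adjusted p = 1.79e-07, edgeR's quasi-likelihood test). On the opposite strand it overlaps Gm17040, which had 12, 9 and 16 counts in piceatannol and 38, 33 and 35 in control libraries, and Gm17041, which had at most 2 in any library. The strand setting of the counting was not given in the sources used here, so reads from Cish and from these overlapping genes cannot be told apart. Cish itself had 9030 or more counts in every library.

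Socs2 had 90.3, 94.8 and 90.6 CPM in piceatannol libraries, against 116, 109 and 112 CPM in control libraries. The groups lay apart by a margin that was small beside that of Cish. Socs2 (chromosome 10, 95385362 to 95417180, minus strand) fell 1.22-fold, with a 95% interval of the log2 fold change of -0.41 to -0.17 (adjusted p = 0.000157, edgeR's quasi-likelihood test).

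Among the members known for receptor tyrosine kinases and insulin receptor substrates, Socs6 rose most. It had 79.0, 77.2 and 65.4 CPM in piceatannol libraries, against 30.1, 29.3 and 28.8 CPM in control libraries. Piceatannol replicate 3 was the lowest of its group and still far above all controls. Socs6 (chromosome 18, 88665224 to 88927481, minus strand) rose 2.51-fold, or 1.33 ± 0.07 (SE) as log2 fold change (adjusted p = 1.76e-12, edgeR's quasi-likelihood test). Processed pseudogenes lie within its span, namely AC118614.1 on the plus strand and AC122398.2 and AC122398.3 on the minus strand.

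Socs7, which encodes another partner of insulin receptor substrates, had 76.4, 81.0 and 77.4 CPM in piceatannol libraries, against 50.4, 47.8 and 53.5 CPM in control libraries. Socs4, linked to the epidermal growth factor receptor, had 58.9, 54.9 and 58.0 CPM in piceatannol libraries, against 40.8, 37.3 and 41.4 CPM in control libraries. Both sets of groups lay apart. Socs7 (chromosome 11, 97362551 to 97398542, plus strand) rose 1.55-fold and Socs4 (chromosome 14, 47276931 to 47296102, plus strand) rose 1.44-fold. Their adjusted p were 2.15e-08 for Socs7 and 5.13e-07 for Socs4 (edgeR's quasi-likelihood test).

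Socs5, also linked to the epidermal growth factor receptor and to interleukin-4 signalling, had 15.3, 13.9 and 13.8 CPM in piceatannol libraries, against 27.9, 26.8 and 27.2 CPM in control libraries. Its 3 values within each group were close together. Socs5 (chromosome 17, 87107679 to 87137839, plus strand) fell 1.90-fold, or -0.93 ± 0.08 (SE) as log2 fold change (adjusted p = 1.80e-09, edgeR's quasi-likelihood test), the largest fall of the family. Socs4 and Socs5, which are the nearest relatives of each other in sequence, thus lay on opposite sides of 0, with 95% intervals of 0.39 to 0.66 for Socs4 and -1.10 to -0.76 for Socs5.

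**Figure D2:**
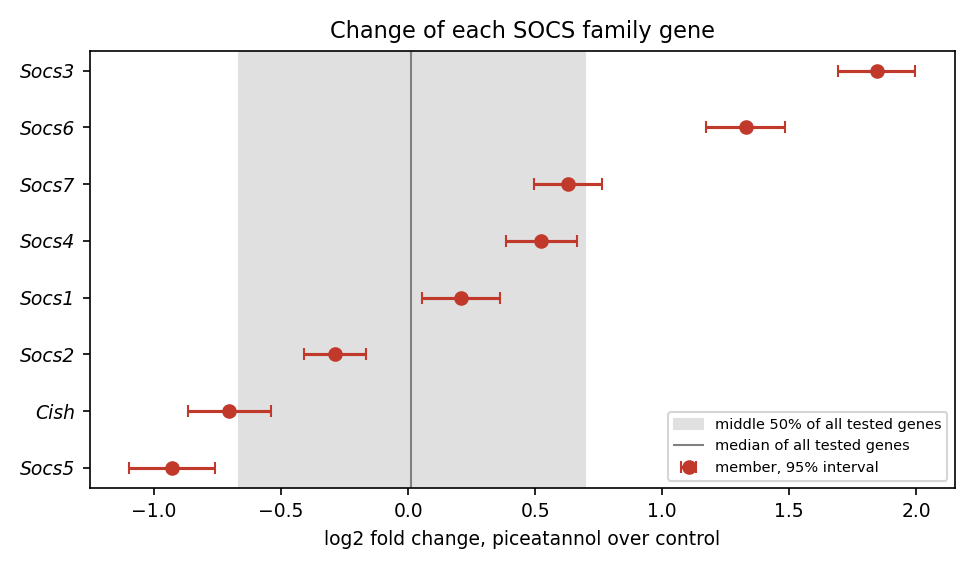
Log2 fold change of each member, piceatannol over control, with its 95% interval, over the middle 50% of all 15380 tested genes (-0.67 to 0.70, grey) and their median (line). The points of Socs3 and Socs6 lie right of the grey band, and those of Socs5 and Cish left of it. The interval of Cish (-0.87 to -0.54) reaches into the band.

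Levels of different members were compared per length, in FPKM. In piceatannol libraries the order was Socs3 (378 ± 31.2), Socs1 (46.8 ± 4.84), Cish (40.1 ± 4.39), Socs7 (10.6 ± 0.365), Socs2 (9.50 ± 0.298), Socs6 (8.84 ± 0.898), Socs4 (8.21 ± 0.275) and Socs5 (3.22 ± 0.177), as mean FPKM ± SD (n = 3). In control libraries it was Socs3 (107 ± 5.91), Cish (66.4 ± 5.06), Socs1 (41.2 ± 1.5001), Socs2 (11.8 ± 0.346), Socs7 (6.96 ± 0.376), Socs5 (6.22 ± 0.119), Socs4 (5.79 ± 0.309) and Socs6 (3.57 ± 0.0802), as mean FPKM ± SD (n = 3). Neighbours whose ranges overlapped were Socs1 and Cish, Socs2 and Socs6, and Socs6 and Socs4 in piceatannol libraries, while no neighbours overlapped in control libraries. Socs6 was thus the lowest member in control libraries, and Socs5 the lowest in piceatannol libraries.

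The summed FPKM of the 8 members ran from 478 to 546 in piceatannol and from 240 to 260 in control libraries. Socs3 alone made up 74.8% ± 1.44 of that sum in piceatannol and 42.9% ± 1.19 in control libraries (SD, n = 3 each). The share of Cish was 7.94% ± 0.625 in piceatannol and 26.7% ± 1.43 in control libraries. The FPKM ratio of Socs3 to Cish was 10.3, 8.51 and 9.58 in piceatannol libraries and 1.73, 1.48 and 1.62 in control libraries. The ratio of Socs3 to Socs1 was 8.73, 7.37 and 8.19 in piceatannol libraries and 2.65, 2.47 and 2.66 in control libraries. Both ratios were higher in every piceatannol library than in any control library, and the change in a ratio does not depend on the gene length used.

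**Figure D3:**
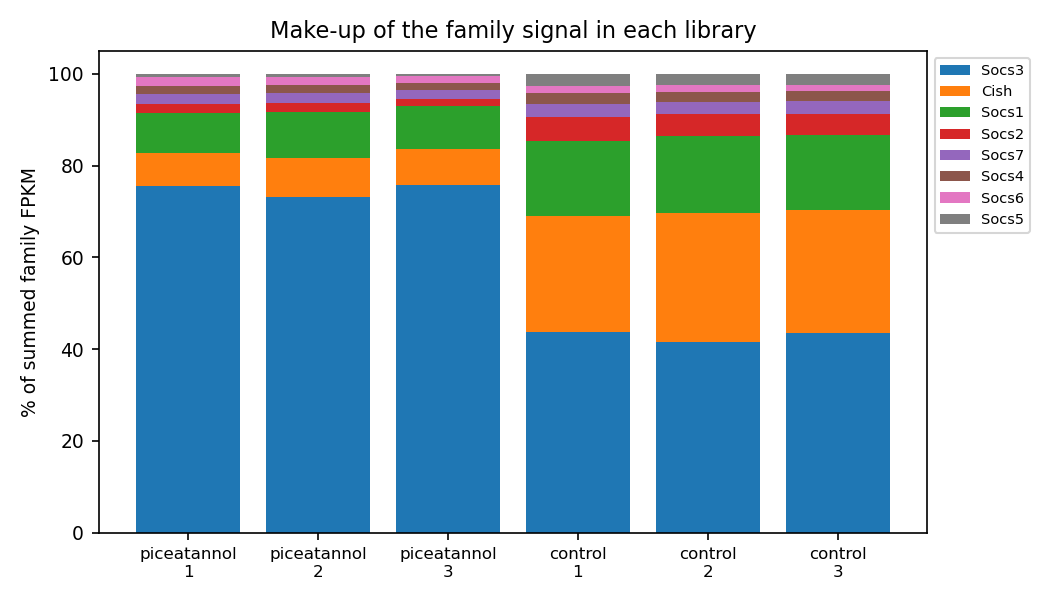
Share of each member in the summed family FPKM of each library, in percent, with the 3 piceatannol libraries left of the 3 control libraries. Socs3 takes 73.1% to 75.7% in piceatannol and 41.5% to 43.7% in control libraries.

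The order between members rests on gene length. The deposited FPKM imply a length of 6460 bases for Cish and 9590 for Socs2, where the GENCODE M21 principal transcripts are 2850 and 2222 bases long, and of 1230 bases for Socs1, whose principal transcript has 2908. For 5 of 8 members the implied length was within 3% of the union of all M21 exons, and Socs1, Socs5 and Socs6 were the exceptions. Per kilobase of principal transcript, Cish stood at 91.8 ± 9.92 in piceatannol and 150 ± 11.3 in control libraries, and Socs3 at 434 ± 36.8 in piceatannol and 121 ± 6.99 in control libraries (SD, n = 3 each). On that scale Cish, and not Socs3, was the highest member in control libraries. The share of Socs3 in the family was then 69.8% in piceatannol and 33.4% in control libraries. Socs3 was highest in piceatannol libraries under each of the 3 lengths.

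**Figure D4:**
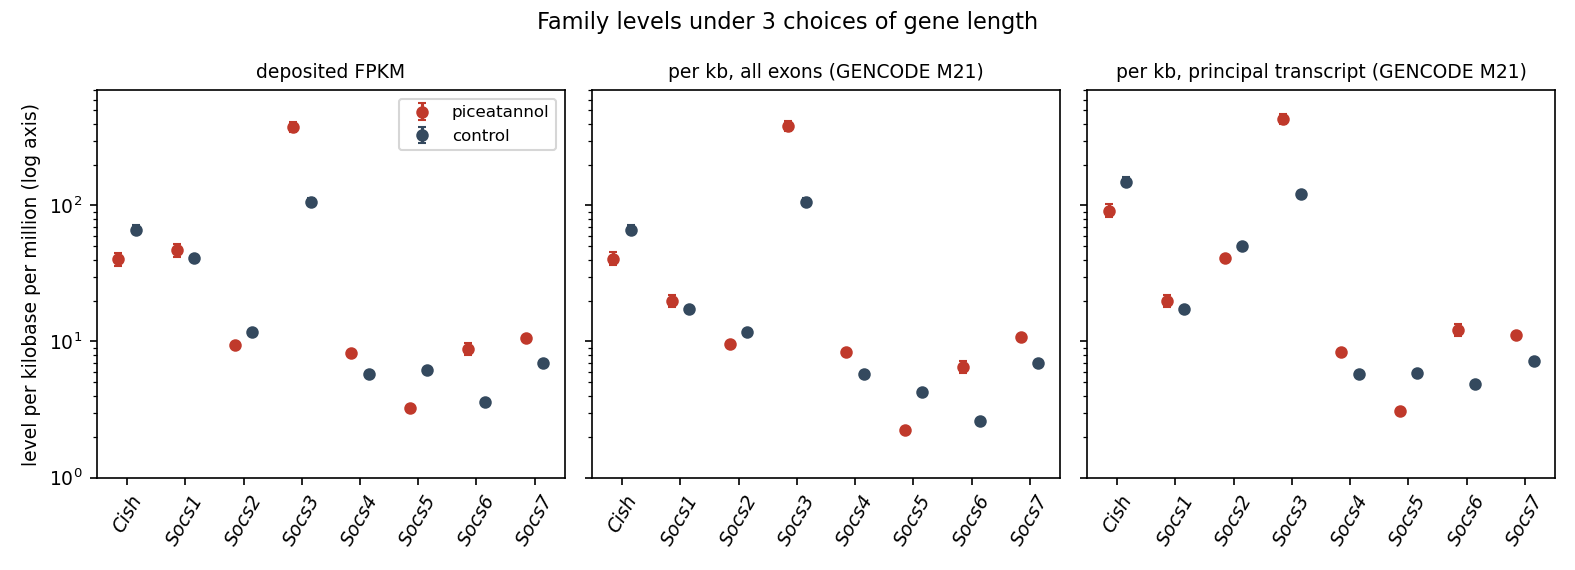
Mean level and SD (n = 3) of each member on a log axis, piceatannol left of control, as deposited FPKM and per kilobase of all M21 exons or of the M21 principal transcript. Cish and Socs2 are higher, and Socs1 lower, with the principal transcript than in the deposited FPKM.

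The genes of the circuit around the family were then counted over whole lists, beside 38.8% of all tested genes up and 38.3% down. Outside the JAK, STAT and GM-CSF receptor lists, the genes named were mainly those with the largest changes in either direction. JAK kinases fell or did not pass the test, with 0 of 4 up and 3 down (median log2 fold change -1.19, against 0.01 for all tested genes). Jak2, the kinase bound to the GM-CSF receptor, had 322, 368 and 338 CPM in piceatannol libraries, against 889, 846 and 835 CPM in control libraries. It fell 2.50-fold, and Tyk2 fell 2.16-fold and Jak3 2.39-fold. Jak1 had 298 ± 10.7 CPM in piceatannol and 273 ± 9.33 CPM in control libraries (SD, n = 3 each), with adjusted p = 0.0567 (edgeR's quasi-likelihood test). Jak1 passed the threshold upward under 5 of 15 alternatives.

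Among the 6 STAT genes reported, 2 rose and 2 fell. Stat2, of type I interferon signalling, fell 1.96-fold. Stat5a, a mediator of GM-CSF signals, had 55.3, 56.9 and 64.6 CPM in piceatannol libraries, against 85.3, 92.3 and 88.4 CPM in control libraries, and fell 1.503-fold. Its neighbour Stat5b had 119, 133 and 128 CPM in piceatannol libraries, against 90.7, 90.4 and 89.9 CPM in control libraries, and rose 1.40-fold. Stat5a and Stat5b are close paralogs, and how shared reads were divided is not known. Stat4 rose 1.71-fold. Stat3, the factor known to induce Socs3, had 249 ± 9.42 CPM in piceatannol and 242 ± 5.35 CPM in control libraries (SD, n = 3 each; log2 fold change 0.04, 95% interval -0.08 to 0.16). Stat6 was at -0.04 on the log2 scale and took either sign across the alternatives.

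Of the receptor chains for GM-CSF, interleukin-3 and interleukin-5, 3 of 5 rose and 2 fell. The signalling chain gene Csf2rb had 3717, 4452 and 4174 CPM in piceatannol libraries, against 2527, 2748 and 2602 CPM in control libraries, a 1.57-fold rise. Csf2rb2 rose 1.39-fold, with a split from Csf2rb that is uncertain because these genes are near-identical. Il3ra rose 1.38-fold. The ligand-binding chain Csf2ra fell 1.36-fold, to 280 ± 8.30 CPM in piceatannol libraries against 382 ± 8.93 CPM in control libraries (SD, n = 3 each). Il5ra fell 2.84-fold at 19 counts in piceatannol and 68 in control libraries in all.

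Other cytokine receptor chains moved in both directions, with 11 of 26 tested up, 12 down and a median of -0.05 on the log2 scale. Il6ra, the binding chain of the interleukin-6 receptor, fell 4.82-fold and Il2ra, the alpha chain of the interleukin-2 receptor, 7.32-fold. The highest rises were those of the erythropoietin receptor gene Epor (3.33) and the interleukin-2 receptor beta chain gene Il2rb (3.13) as log2 fold changes, which rest on 10 and 8 control counts in all. Of 8 tested cytokine genes, 2 rose and 2 fell. Osm, which encodes the gp130 cytokine oncostatin M, had 458, 454 and 486 CPM in piceatannol libraries, against 101.2, 104 and 115 CPM in control libraries, a 4.37-fold rise. Il6 rose 3.26-fold, Il12b fell 1.90-fold and Il27 fell 2.65-fold. Csf2, the gene of GM-CSF itself, was not tested, with 6, 1 and 2 counts in piceatannol and 2, 1 and 0 in control libraries, too few for this depth to show a difference.

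Known targets of the STATs outside the family were read as 2 lists, with no test between them. Of 12 STAT5 target genes, 4 rose and 7 fell (median log2 fold change -0.40). Pim1, a survival kinase gene, had 1282, 1297 and 1275 CPM in piceatannol libraries, against 467, 420 and 486 CPM in control libraries, a 2.81-fold rise. Pim1 and Osm (2.13 on the log2 scale) rose, the opposite direction to Cish, while the cyclin gene Ccnd1 (-4.58) and the chemokine gene Ccl17 (-3.62) fell. Of 13 tested STAT3 target genes, 7 rose and 3 fell (median 0.44). Cebpb (2.15) and Nfil3 (1.95), both transcription factor genes, rose, Fos (-1.13) and Timp1 (-1.02) fell, and Bcl3 was at -0.13 with adjusted p = 0.127 (edgeR's quasi-likelihood test). Without control replicate 1, Bcl3 was called at -0.20 (adjusted p = 0.0351, edgeR's quasi-likelihood test). The lists overlap. Pim1 and Mcl1 stand in both STAT target lists, Osm also in that of cytokines, and Il2ra, Il4ra and Osmr also in that of other receptor chains.

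Other brakes act on the same pathway as phosphatases and ligases. Of 14 tested negative regulators of JAK and STAT signalling outside the family, 4 rose and 8 fell (median log2 fold change -0.46). Ptpn6, the gene of the phosphatase SHP-1, had 44.3, 47.9 and 52.2 CPM in piceatannol libraries, against 391, 426 and 418 CPM in control libraries, an 8.54-fold fall. Usp18, a brake on the interferon receptor, fell 4.48-fold. The SUMO ligase gene Pias4 rose 2.12-fold and the ubiquitin ligase gene Cblb 1.78-fold.

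The SOCS box works through elongins, cullin 5 and a RING protein. Of 10 tested partner genes, 3 rose and 5 fell (median log2 fold change -0.20). The elongin gene Elob (-0.39), Cul5 (-0.36) and the RING protein gene Rnf7 (-0.29) fell on the log2 scale. The elongin gene Eloc (-0.10) was not past the threshold. Nedd8, the modifier that activates cullins, fell 2.12-fold and Rbx1, another RING protein gene, 1.52-fold. Arih2, a ligase that works with cullin 5, rose 1.88-fold. Dcun1d1, of cullin neddylation, was at 0.34 on the log2 scale, a call lost under 3 of 15 alternatives. Its adjusted p was 0.0794 without piceatannol replicate 1 (edgeR's quasi-likelihood test), and 0.0506 and 0.068 in limma on FPKM logged after adding 1 and 0.1. Of 19 tested genes of other SOCS box proteins, 9 rose and 5 fell (median 0.18). Asb2 fell by 7.09 on the log2 scale and Asb16 by 2.07, and Spsb4 (2.39) and Asb5 (4.41) rose, the last with 18 control counts in all.

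Of 11 receptors and substrates that SOCS proteins are known to bind, 8 rose and 2 fell (median log2 fold change 0.61). Among all tested genes 38.8% rose and 38.3% fell, and no test of the list was run. Kit, the stem cell factor receptor that SOCS6 is known to bind, had 71.3, 66.9 and 84.9 CPM in piceatannol libraries, against 22.8, 18.4 and 23.3 CPM in control libraries, a 3.45-fold rise. The insulin receptor substrate gene Irs1 rose 3.45-fold, at only 312 counts in piceatannol and 113 in control libraries in all. Flt3 (-2.30, with 67 piceatannol counts in all) and the epidermal growth factor receptor gene Egfr (-0.95) fell on the log2 scale. Kit and Flt3 mark progenitor and dendritic cells as well.

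**Figure D5:**
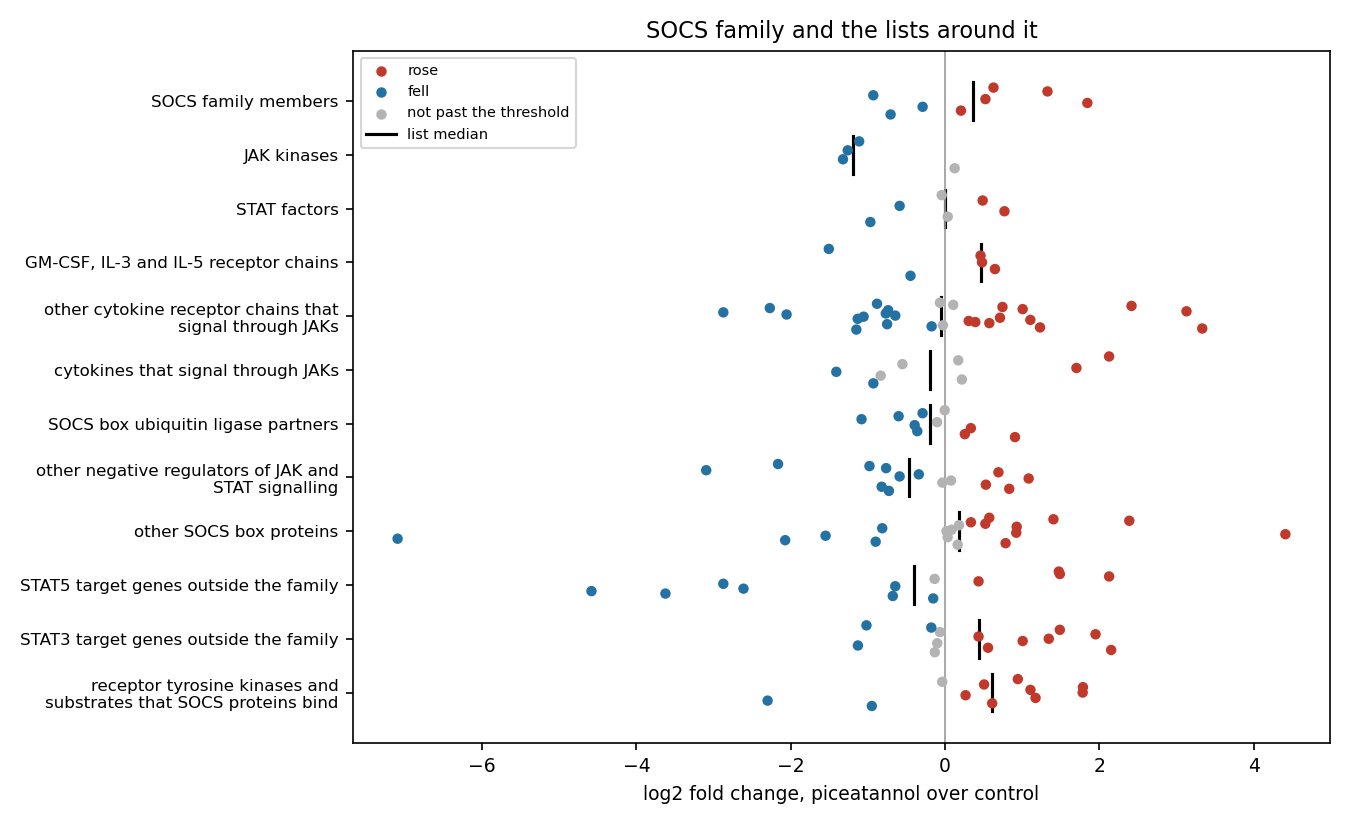
Log2 fold change, piceatannol over control, of each tested gene in the family and in the lists around it, with colours for rose, fell and not past the threshold and a bar at each list's median. The JAK list lies mostly left of 0, and the family spans both sides.

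Genes whose pattern over the 6 libraries was most like that of a member were named by the smallest root mean square difference of centred log2 CPM among 12958 genes. For Socs3 these were Slc26a11 (0.05), Repin1 (0.05) and the LPS co-receptor gene Cd14 (0.06). Cd14 had 1081 CPM in piceatannol and 285 CPM in control libraries on average. For Socs5 they were Dpy19l1 (0.02), Cdc42se2 (0.03) and Riox2 (0.03). With 2 groups, such likeness is set mainly by the size of the group difference.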

How the data were processed

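RNA was sequenced from 3 piceatannol and 3 control libraries, made from 1 µg of total RNA each, per the labels' protocols. Raw counts per gene symbol were deposited by the authors. FPKM values of the same libraries were also deposited. Per the submitters' processing notes, which give no versions, the tools included STAR, featureCounts and DESeq2 and the builds were mm10 and GRCm38. The annotation was not given in the sources used here, nor was the strand setting.

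From the counts, edgeR 4.0.16 (R 4.3.3) tested 15380 genes that passed filterByExpr (minimum count 10), with TMM factors, robust quasi-likelihood fits, no covariate, a two-sided test and a threshold of 0.05 after Benjamini-Hochberg adjustment. The SE is the log2 fold change divided by the square root of F, and intervals are at 95%. CPM use TMM-scaled library totals. Counts of library pairs within a group differed by a chi-square of 9.88 to 18.1 for each degree of freedom, more than sampling noise. Positions and lengths are those of GENCODE M21 (GRCm38), and windows those of RefSeq (GRCm38.p6). Alternatives used DESeq2 1.42.0 and limma 3.58.1.

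The members and lists were chosen with earlier results of these data known. All members of the family and of the JAK, STAT and GM-CSF receptor lists were named, and up to 2 genes with the highest and 2 with the lowest log2 fold change among those called in each other list. Pim1, Osm and Bcl3 were named whatever their result. Elob, Eloc, Cul5 and Rnf7 were also named, outside that rule. Of what the rule names, 1 gene and 1 list are not reported here.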

Additional observations from a re-analysis of the deposited data

How the results depend on the processing

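Directions of all 8 members held under each of the 15 alternatives tried, and all but Socs1 kept their call under each. For Socs1 the log2 fold change was 0.19 in DESeq2 (adjusted p = 0.0505) and 0.18 on FPKM logged after adding 1 or 0.1 (limma), without a call. With each library left out in turn it ran from 0.15 to 0.29, and the call was lost without piceatannol replicate 2 or 3 or control replicate 1, the last with adjusted p = 0.0667. A minimum CPM of 5 in 3 libraries left 2 cytokine genes called. Requiring at least a 2-fold change, chosen after seeing the data, left 5234 genes and 2 members. Stat6, not called, changed sign to 0.011 with upper-quartile factors, 0.016 with the stricter filter and 0.0062 without piceatannol replicate 1, and lay between -0.086 and 0.0062 with each library left out.

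With all M21 exons as the length, Cish ranked 2, Socs1 3, Socs4 6 and Socs6 7 in piceatannol libraries, and Socs4 6 and Socs5 7 in control libraries. With principal transcripts, a choice made after seeing the data, the ranks in piceatannol libraries were 2 for Cish, 4 for Socs1, 3 for Socs2, 5 for Socs6 and 6 for Socs7. In control libraries they were 1 for Cish, 2 for Socs3, 3 for Socs2 and 4 for Socs1.

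With the replicate number as a block, 12012 genes and 8 members were called. Libraries of the same number deviated together only weakly (r of 0.037 to 0.070 across genes), though each library correlated best with its own number. The labels do not say what the number marks, so whether it pairs the libraries is not known. The main fit left it out. Under the block Jak1 passed with adjusted p = 0.0307 (edgeR's quasi-likelihood test). Depth limits genes such as Csf2 and Il10, whose counts did not pass the filter.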
